A study of Homo sapiens with 16 samples.

Results

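The genes described here are those of the G1 phase control circuit of the cell cycle: the D-type cyclins CCND1, CCND2 and CCND3, the E-type cyclins CCNE1 and CCNE2, the kinases CDK2, CDK4 and CDK6, the retinoblastoma gene RB1 and the transcription factor gene E2F1. These 10 genes were taken by name from the 60603 genes of the authors' count table, with earlier results of these data known. All 10 passed the filter on low counts in each fit. The series asked what retinoic acid and a CoREST inhibitor do, singly and jointly, to acute myeloid leukaemia cells, and read this out by RNA-seq.

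The libraries come from 2 human cell lines. The leukaemia line SKNO-1 has the fusion gene RUNX1-RUNX1T1. The leukaemia line U-937 has features of monocytes. Each line received the vehicle DMSO, all-trans retinoic acid (ATRA), Corin, or ATRA and Corin together (here called the combination), for 24 h, with ATRA and Corin at 0.1 µM each and 2 libraries in each of the 8 groups. ATRA is a ligand of the retinoic acid receptors. Corin inhibits the CoREST complex through its demethylase LSD1 and its histone deacetylases HDAC1 and HDAC2. Only the SKNO-1 medium held GM-CSF, at 10 ng/mL, in all 4 of its groups and in none of the U-937 groups, so medium and line cannot be told apart. Each line is a single established culture, and the labels do not say whether the 2 libraries of a group came from separate cultures. The p-values therefore measure the spread between these libraries, which may be technical.

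D-type cyclins are the part of this circuit that responds to growth signals. They bind CDK4 and CDK6, and the active kinases phosphorylate RB1, which otherwise holds E2F factors in check. Freed E2F factors switch on the genes of DNA synthesis and also the E-type cyclins, which activate CDK2 and carry the phosphorylation of RB1 further. CDK inhibitors of the CDKN1 and CDKN2 families oppose the kinases. In myeloid cells, arrest in G1 commonly goes with terminal differentiation.

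Libraries held 28.4 to 37.8 M estimated counts. Of the line markers, RUNX1T1 lay between 95.4 and 156 CPM (counts scaled to a common library size) in SKNO-1 and had at most 1 count in a U-937 library, while HOXA9 and HOXA10 had 0 counts in SKNO-1. The myeloid genes SPI1, CD33, PTPRC, CEBPA and LYZ were present in both lines, but MPO, a granule enzyme of myeloid cells, had only 4 to 17 counts per library in U-937. CD3E, MS4A1 and HBB, markers of other blood cells, had at most 1 count in any library. The 4 markers of tissues other than blood summed to 7.38 to 24.9 CPM in SKNO-1 and 56.3 to 292.9 CPM in U-937, nearly all of it PECAM1, which blood cells also express. The part of these markers in the results was not tested. The SKNO-1 DMSO pair stood apart from the other pairs. The standard deviation of the log2 difference between its replicates over genes was 0.361, against 0.110 to 0.209 in the other 7 groups. The log2 difference followed the GC content of the genes (r = 0.794 over 9114 genes, which are not independent). In the other groups this r ran from -0.412 (SKNO-1 ATRA) to 0.569 (U-937 DMSO). For the 10 genes, results of SKNO-1 against DMSO are therefore given also without each SKNO-1 DMSO library wherever that changes a call. Such a fit leaves 1 DMSO library and drops the pair with the widest spread, so adjusted p-values can fall sharply. A call in it is therefore no separate support. Some values that were not called changed sign as well. Without SKNO-1 DMSO replicate 1, E2F1 with ATRA was at 0.17, CCNE2 with ATRA at -0.12 and CDK2 with ATRA at 0.01. In the same fit CCND2 with Corin was at -0.05, CCND3 with Corin at 0.002 and CCND3 with the combination at 0.02. Without replicate 2, RB1 with ATRA was at 0.08. The counts over the pathway lists were not computed without either SKNO-1 DMSO library.

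In U-937, the combination lowered 8 of the 10 genes. CCND2 was 15.2-fold lower than with DMSO, CCNE1 7.63-fold, E2F1 7.16-fold, CCNE2 5.46-fold, CDK6 4.09-fold, CDK2 3.34-fold, CDK4 2.98-fold and CCND1 2.61-fold. CCND3 and RB1 did not pass the test. The lowered genes include the kinases CDK4, CDK6 and CDK2, both E-type cyclins and the D-type cyclins CCND1 and CCND2, but not the D-type cyclin CCND3. Beside this count, 65.3% of the 17717 genes tested in U-937 were called, 33.1% higher and 32.2% lower. The median log2 fold change was -1.89 over the 10 genes and 0.03 over all genes tested. A gene is called where its Benjamini-Hochberg adjusted p from edgeR's quasi-likelihood test is under 0.05. Without combination replicate 1 the CCND1 call was lost (adjusted p = 0.071) and 7 genes remained lower. In bulk RNA, fewer cells of a type and less RNA per cell cannot be told apart.

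Each agent alone gave a mixed picture in U-937. ATRA lowered 4 genes (CCND2, CDK6, CDK4 and CCNE1) and raised 3 (CCNE2, CCND3 and RB1), with 41.8% of all genes called (21.7% higher and 20.1% lower). Corin lowered CCND1, CCND2 and CDK6 and raised CCND3, with 12.9% of all genes called (8.55% higher and 4.40% lower). The Corin count fell from 4 to 2 without U-937 DMSO replicate 1, where CCND1 (adjusted p = 0.0634) and CCND3 (adjusted p = 0.155) were no longer called.

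In SKNO-1 the combination lowered 6 of the 10 genes (CDK6, CCNE1, CCNE2, CDK4, CDK2 and CCND2) and raised CCND1 from very few counts, with 46.7% of the 17479 genes tested called (24.7% higher and 22.0% lower). Corin alone lowered CCNE1, E2F1, CDK4, CCNE2 and CDK2 and raised CCND1, with 37.9% of all genes called (20.5% higher and 17.3% lower). ATRA lowered only CDK6, with 6.75% of all genes called (2.96% higher and 3.79% lower), so that its share of 1 in 10 lies near the background. More of the 10 genes were called for each treatment when either SKNO-1 DMSO library was left out. The share over all genes in those fits is not given, so this says nothing about the 10 genes in particular.

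**Figure D1:**
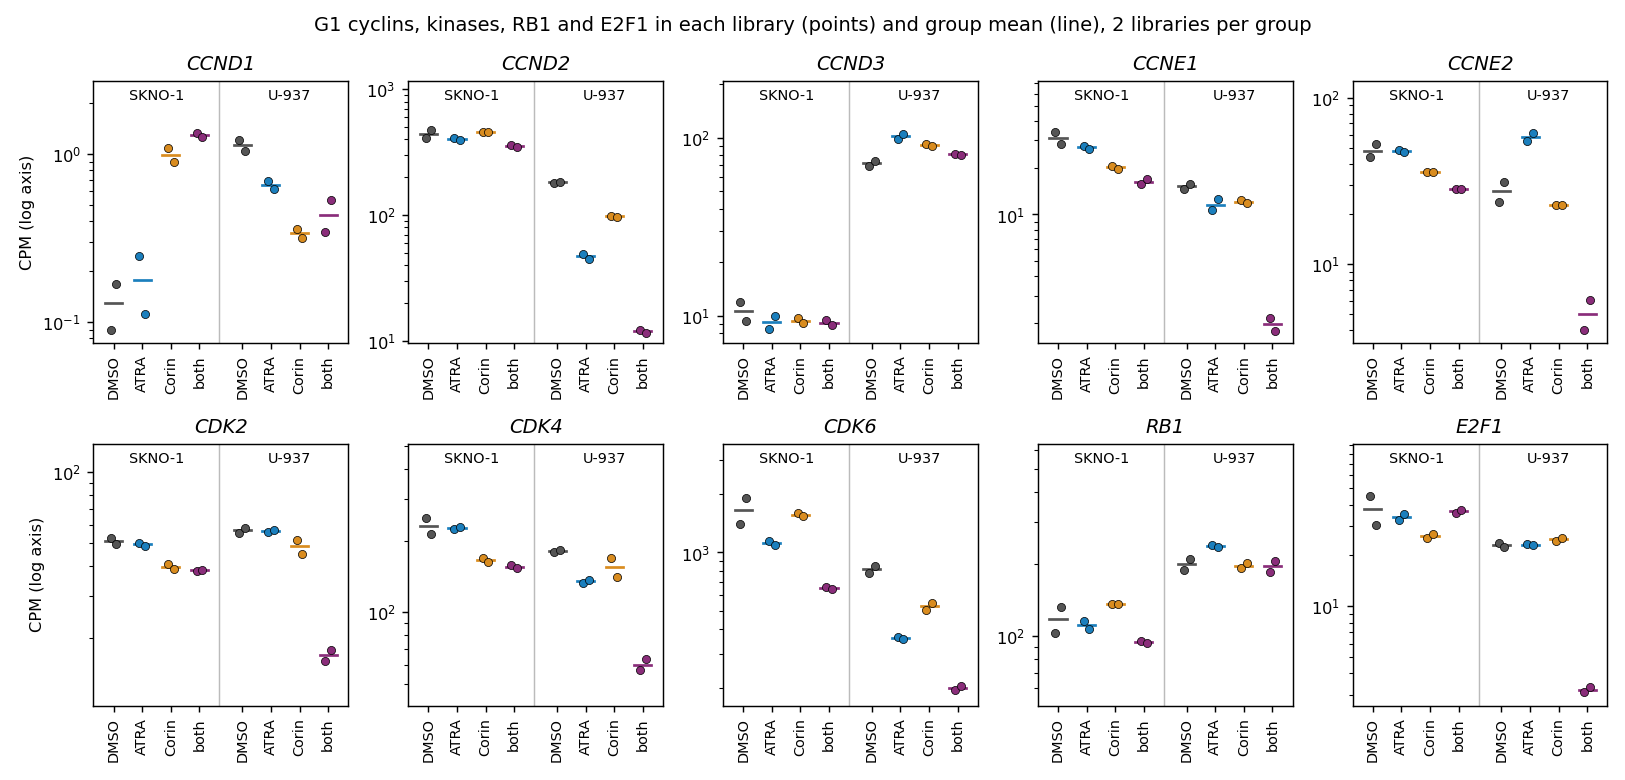
Expression of the 10 genes in CPM on a log axis, in the 8 libraries of SKNO-1 (left of the grey line) and the 8 of U-937 (right), with 1 point per library and a line at the mean of the 2 libraries of a group. The U-937 combination libraries are the lowest of their line for CCND2, CCNE1, CCNE2, CDK2, CDK4, CDK6 and E2F1, while RB1 stays between 184.7 and 240.6 CPM in every U-937 library.

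CCND2 (ENSG00000118971.8, GRCh38 chromosome 12, 4269771 to 4305353, plus strand) encodes cyclin D2. In U-937 it stood at 182 and 185 CPM with DMSO, at 49.6 and 44.8 CPM with ATRA, at 98.9 and 97.5 CPM with Corin, and at 12.3 and 11.6 CPM with the combination. The 4 groups did not overlap, and the combination libraries were the lowest. The log2 fold change against DMSO was -1.96 ± 0.10 with ATRA (SE, n = 2 libraries per group, adjusted p = 8.64e-14), -0.90 ± 0.09 with Corin (adjusted p = 2.07e-07) and -3.93 ± 0.11 with the combination (adjusted p = 4.69e-19).

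In SKNO-1, CCND2 was higher than in any U-937 library, at 410.5 and 476 CPM with DMSO, 410.3 and 397 CPM with ATRA, 457 and 459.5 CPM with Corin, and 361 and 350.0 CPM with the combination. The combination libraries were the lowest of the line, but the gap to the ATRA libraries was small. The log2 fold change of the combination was -0.27 (95% interval -0.42 to -0.12, adjusted p = 0.0114), and the call was lost without combination replicate 2 (adjusted p = 0.0858). The log2 fold change was -0.36 without SKNO-1 DMSO replicate 1 and -0.19 without replicate 2. In the authors' deposited table the same comparison has an adjusted p of 0.0835 for CCND2. With ATRA or Corin alone the changes were -0.09 (interval -0.25 to 0.06) and 0.05 (interval -0.10 to 0.20), which did not pass the test. Without SKNO-1 DMSO replicate 1, the ATRA change was -0.22 and was called (adjusted p = 0.000251), and without SKNO-1 DMSO replicate 2 the Corin change was 0.12 and was called (adjusted p = 0.0179).

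CCND3 (ENSG00000112576.12, GRCh38 chromosome 6, 41934934 to 42050357, minus strand), the gene of cyclin D3, went the other way in U-937. It stood at 69.9 and 74.0 CPM with DMSO, 98.6 and 105 CPM with ATRA, 92.1 and 89.5 CPM with Corin, and 80.8 and 80.4 CPM with the combination. All treated libraries lay above both DMSO libraries. The rise was called with ATRA (0.50 ± 0.09, adjusted p = 0.00014) and with Corin (0.34 ± 0.09, adjusted p = 0.0167), whereas the combination gave 0.17 (interval -0.02 to 0.37, adjusted p = 0.115). The Corin call was lost on leaving out DMSO replicate 1 (0.155), DMSO replicate 2 (0.0634) or Corin replicate 1 (0.0887). In SKNO-1 the 8 libraries lay between 8.46 and 12.0 CPM, and no treatment passed the test, with log2 fold changes from -0.18 to -0.17. Without SKNO-1 DMSO replicate 2 these were called lower with ATRA (-0.40, adjusted p = 0.0382), with Corin (-0.38, adjusted p = 0.0229) and with the combination (-0.37, adjusted p = 0.0295).

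CCND1 (ENSG00000110092.3, GRCh38 chromosome 11, 69641156 to 69654474, plus strand), the gene of cyclin D1, was near the floor of detection in both lines. In SKNO-1 it had 3 and 6 counts with DMSO (0.0900 and 0.169 CPM), 8 and 4 with ATRA, 36 and 29 with Corin (1.08 and 0.896 CPM), and 42 and 41 with the combination (1.33 and 1.26 CPM). The Corin and combination libraries lay above all DMSO and ATRA libraries. Its log2 fold change was 2.92 ± 0.44 with Corin (adjusted p = 0.00158) and 3.36 ± 0.43 with the combination (adjusted p = 0.000524), which is 7.59-fold and 10.3-fold from a base of 9 counts over the DMSO libraries. Without SKNO-1 DMSO replicate 1 and without replicate 2 the log2 fold changes were 2.55 and 3.42 with Corin and 2.99 and 3.86 with the combination.

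In U-937 the direction for CCND1 was opposite. The counts were 40 and 32 with DMSO (1.21 and 1.05 CPM), 26 and 21 with ATRA, 14 and 10 with Corin (0.359 and 0.314 CPM), and 12 and 16 with the combination (0.341 and 0.529 CPM). The 3 treated groups lay below both DMSO libraries. The change was -1.74 ± 0.43 with Corin (adjusted p = 0.00749), a call that was lost without U-937 DMSO replicate 1 (adjusted p = 0.0634), and -1.38 ± 0.42 with the combination (adjusted p = 0.00606), lost without combination replicate 1 (adjusted p = 0.071). In the authors' deposited table the combination has a log2 fold change of -1.40 for CCND1 with an adjusted p of 0.0898. For Corin their table gives -1.74 with an adjusted p of 0.0852. ATRA gave -0.79 (interval -1.60 to 0.03), which did not pass the test.

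Levels of different genes were compared per length, in the authors' TPM (transcript abundance per length), within a library. The D-type cyclins of SKNO-1 were mostly CCND2, which made up 89.5% to 93.5% of their summed TPM in all 8 libraries. In U-937 with DMSO, CCND3 made up 56.8% and 57.8% and CCND2 42.8% and 41.8%. The CCND2 share was 12.8% and 10.6% with ATRA, 24.0% and 24.1% with Corin, and 4.47% and 3.67% with the combination, where CCND3 made up 95.02% and 96.1%. So the leading D-type cyclin transcript differed between the lines, and in U-937 the share of CCND2 was lower in every treated library than in the DMSO libraries. CCND1 never exceeded 0.729% of the D-type cyclin TPM. These shares describe the makeup within each library. Between libraries the scales differ: CCND3 in U-937 stood at 37.0 and 33.0 TPM with the combination, below its 40.6 and 43.7 TPM with DMSO, while its CPM was higher with the combination.

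**Figure D2:**
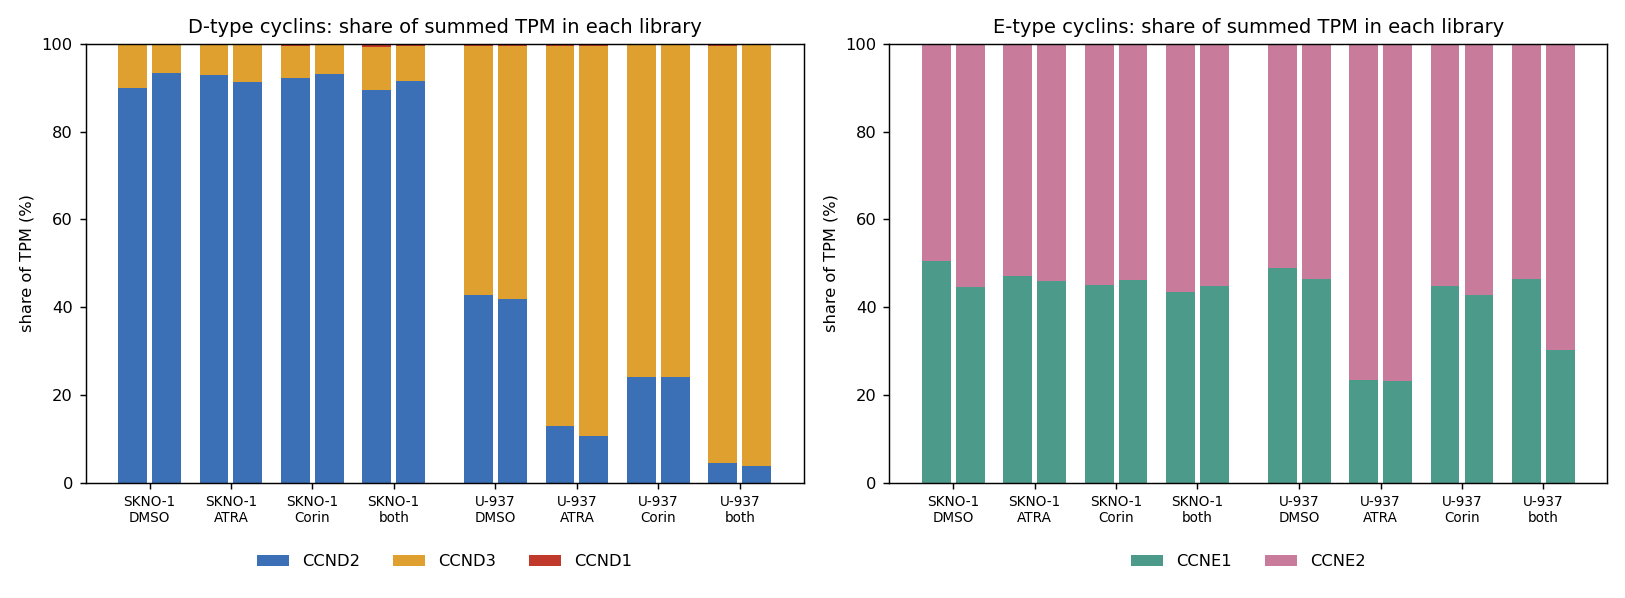
Share of each gene in the summed TPM of the D-type cyclins (left) and of the E-type cyclins (right), with 1 bar per library and 2 libraries per group. CCND2 holds 89.5% to 93.5% of the D-type sum in SKNO-1 and 4.47% and 3.67% in the U-937 combination libraries. CCNE2 holds 76.5% and 76.8% of the E-type sum in U-937 with ATRA.

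CDK6 (ENSG00000105810.9, GRCh38 chromosome 7, 92604921 to 92836573, minus strand) encodes a kinase partner of the D-type cyclins that is prominent in blood cells. In U-937 it stood at 787 and 851.5 CPM with DMSO, 365 and 355 CPM with ATRA, 506 and 547.5 CPM with Corin, and 194 and 205 CPM with the combination. The 4 groups did not overlap, in the same order as for CCND2. The log2 fold change was -1.19 ± 0.11 with ATRA (adjusted p = 2.51e-09), -0.63 ± 0.10 with Corin (adjusted p = 0.000125) and -2.03 ± 0.11 with the combination (adjusted p = 4.94e-14).

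In SKNO-1, CDK6 stood at 1407 and 1912 CPM with DMSO, 1149 and 1092 CPM with ATRA, 1592 and 1541 CPM with Corin, and 667 and 647.5 CPM with the combination. The combination libraries were the lowest, and the Corin libraries lay inside the range of the DMSO pair, whose replicates differ more than those of any other group for this gene. With the combination CDK6 was 2.43-fold lower than with DMSO (log2 fold change -1.28 ± 0.11, adjusted p = 9.19e-05), and the value was -1.48 and -1.08 without each DMSO library. No other gene of the set fell as far in this line. ATRA alone gave -0.52 (interval -0.79 to -0.26, adjusted p = 0.0304), but the call was lost without any 1 of the 6 treated libraries (adjusted p from 0.0762 to 0.175). Corin alone gave -0.08 (interval -0.34 to 0.18), which was -0.29 (adjusted p = 4.29e-06) without SKNO-1 DMSO replicate 1 and 0.12 (adjusted p = 0.0217) without replicate 2, so that its direction is set by 1 control library.

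CDK4 (ENSG00000135446.17, GRCh38 chromosome 12, 57747727 to 57756013, minus strand), the other kinase partner of the D-type cyclins, stood in U-937 at 179 and 182 CPM with DMSO, 133 and 137 CPM with ATRA, 169.9 and 141.5 CPM with Corin, and 57.2 and 63.5 CPM with the combination. The combination libraries were the lowest, and the Corin libraries lay between those of DMSO and ATRA. The change was -0.42 ± 0.10 with ATRA (adjusted p = 0.0017), -0.21 with Corin (interval -0.42 to -0.00, adjusted p = 0.194) and -1.58 ± 0.11 with the combination (adjusted p = 3.37e-12).

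In SKNO-1 CDK4 stood at 249 and 214 CPM with DMSO, 224 and 229 CPM with ATRA, 169.7 and 163 CPM with Corin, and 157.5 and 154 CPM with the combination. The libraries with Corin, alone or in the combination, lay below all others. The change was -0.48 ± 0.08 with Corin (adjusted p = 0.00355) and -0.52 ± 0.09 with the combination (adjusted p = 0.00167). With 1 library left out at a time it ran from -0.62 to -0.36 with Corin and from -0.66 to -0.40 with the combination. ATRA gave 0.01 (interval -0.19 to 0.20), and -0.16 with a call (adjusted p = 0.00823) without SKNO-1 DMSO replicate 2.

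CCNE1 (ENSG00000105173.14, GRCh38 chromosome 19, 29811991 to 29824312, plus strand) encodes cyclin E1, an activator of CDK2. In U-937 it stood at 14.6 and 15.8 CPM with DMSO, 10.6 and 12.52 CPM with ATRA, 12.4 and 11.8 CPM with Corin, and 2.16 and 1.78 CPM with the combination. The combination libraries lay far below the rest. The change was -2.93 ± 0.17 (adjusted p = 2.56e-13) with the combination, and -0.39 with ATRA (interval -0.69 to -0.10, adjusted p = 0.0293). The ATRA call was lost on leaving out DMSO replicate 1 (0.0574), DMSO replicate 2 (0.165) or ATRA replicate 1 (0.294). Corin gave -0.32 (interval -0.62 to -0.03), which did not pass the test.

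In SKNO-1 CCNE1 stood at 33.9 and 28.5 CPM with DMSO, 27.6 and 26.5 CPM with ATRA, 20.7 and 19.7 CPM with Corin, and 15.7 and 16.8 CPM with the combination. The 4 groups did not overlap, with DMSO the highest and the combination the lowest. It was called lower with Corin (-0.63 ± 0.11, adjusted p = 0.0035) and with the combination (-0.89 ± 0.11, adjusted p = 0.000496). With 1 library left out at a time the change ran from -0.78 to -0.50 with Corin and from -1.04 to -0.75 with the combination. ATRA gave -0.17 (interval -0.42 to 0.09), which was called without SKNO-1 DMSO replicate 2 (-0.35, adjusted p = 0.00334).

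CCNE2 (ENSG00000175305.17, GRCh38 chromosome 8, 94879770 to 94896678, minus strand), the gene of cyclin E2, was the only gene of this set with a rise above 2-fold after a single agent in U-937. It stood at 23.7 and 31.2 CPM with DMSO, 55.2 and 61.2 CPM with ATRA, 22.6 and 22.7 CPM with Corin, and 4.03 and 6.05 CPM with the combination. The ATRA libraries lay above, and the combination libraries below, all others of the line. ATRA gave 1.08 ± 0.15 (2.12-fold, adjusted p = 2.31e-05) and the combination -2.45 ± 0.17 (adjusted p = 3.45e-09), while Corin gave -0.27 (interval -0.59 to 0.05). The combination was thus 11.6-fold below ATRA alone (adjusted p = 8.71e-11). CCNE2 made up 51.0% and 53.5% of the summed E-type TPM with DMSO and 76.5% and 76.8% with ATRA.

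In SKNO-1 CCNE2 stood at 43.9 and 52.4 CPM with DMSO, 48.4 and 47.2 CPM with ATRA, 35.8 CPM in both Corin libraries, and 28.5 and 28.3 CPM with the combination. The ATRA libraries lay inside the range of the DMSO pair, and the Corin and combination libraries below it. The change was -0.42 ± 0.08 with Corin (adjusted p = 0.00569), -0.71 ± 0.08 with the combination (adjusted p = 0.000375) and 0.03 with ATRA (interval -0.16 to 0.22). With 1 library left out at a time the change ran from -0.55 to -0.33 with Corin and from -0.82 to -0.61 with the combination.

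CDK2 (ENSG00000123374.11, GRCh38 chromosome 12, 55966781 to 55972789, plus strand), the kinase of the E-type cyclins, stood in U-937 at 55.0 and 58.3 CPM with DMSO, 55.6 and 56.9 CPM with ATRA, 51.8 and 45.2 CPM with Corin, and 16.1 and 17.8 CPM with the combination. The ATRA libraries lay inside the range of the DMSO pair, the Corin libraries lay just below it, and the combination libraries lay far below. The change was -1.74 ± 0.11 with the combination (adjusted p = 1.13e-12), -0.01 with ATRA (interval -0.22 to 0.20) and -0.22 with Corin (interval -0.43 to -0.01, adjusted p = 0.18).

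In SKNO-1 CDK2 stood at 52.7 and 49.7 CPM with DMSO, 50.3 and 48.9 CPM with ATRA, 40.8 and 39.1 CPM with Corin, and 38.4 and 38.8 CPM with the combination. As for CDK4, the 4 libraries that had received Corin lay below the other 4. The change was -0.36 ± 0.07 with Corin (adjusted p = 0.00681) and -0.36 ± 0.07 with the combination (adjusted p = 0.00505). The Corin call was lost without Corin replicate 2 (adjusted p = 0.0636). ATRA gave -0.01 (interval -0.18 to 0.16).

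RB1 (ENSG00000139687.15, GRCh38 chromosome 13, 48303744 to 48599436, plus strand) encodes the pocket protein that restrains E2F factors. In U-937 it stood at 189.6 and 210.3 CPM with DMSO, 240.6 and 236 CPM with ATRA, 192 and 201 CPM with Corin, and 185 and 206 CPM with the combination. The ATRA libraries lay above the rest, and the other 3 groups overlapped. The combination gave -0.03 (interval -0.23 to 0.18), a range that leaves out any change of the size seen in the lowered genes. ATRA gave 0.25 ± 0.10 (adjusted p = 0.0449), lost on leaving out any 1 of the 4 libraries compared: DMSO replicate 1 (0.311) or 2 (0.0546), ATRA replicate 1 (0.209) or 2 (0.193). DESeq2 gave an adjusted p of 0.0546.

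In SKNO-1 RB1 stood at 103 and 132.5 CPM with DMSO, 115 and 107 CPM with ATRA, 136 and 135 CPM with Corin, and 94.8 and 92.7 CPM with the combination. The combination libraries were the lowest and the Corin libraries the highest, but the DMSO pair spanned most of the gap. Against DMSO the combination gave -0.27 (interval -0.51 to -0.04, adjusted p = 0.055), which was -0.44 with a call (adjusted p = 1.68e-07) without SKNO-1 DMSO replicate 1 and -0.11 (adjusted p = 0.0731) without replicate 2. Corin gave 0.21 (interval -0.02 to 0.44), called without SKNO-1 DMSO replicate 2 (0.36, adjusted p = 6.78e-06). ATRA gave -0.05 (interval -0.28 to 0.19), called lower without SKNO-1 DMSO replicate 1 (-0.24, adjusted p = 0.000782).

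E2F1 (ENSG00000101412.13, GRCh38 chromosome 20, 33675477 to 33686385, minus strand) encodes an activating E2F factor. In U-937 it stood at 23.6 and 22.4 CPM with DMSO, 23.2 and 22.9 CPM with ATRA, 24.4 and 25.5 CPM with Corin, and 3.10 and 3.31 CPM with the combination. The libraries of the first 3 groups lay between 22.4 and 25.5 CPM, and only the combination libraries were low. The change was -2.84 ± 0.13 with the combination (adjusted p = 5.87e-15), 0.00 with ATRA (interval -0.23 to 0.24) and 0.12 with Corin (interval -0.11 to 0.35).

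In SKNO-1 E2F1 stood at 44.9 and 30.4 CPM with DMSO, 32.3 and 35.1 CPM with ATRA, 25.4 and 26.8 CPM with Corin, and 35.8 and 37.2 CPM with the combination. The DMSO libraries enclosed those of ATRA and of the combination, and only the Corin libraries lay below both. E2F1 transcripts are 61.6% G and C, the highest of the 10 genes, and the difference within the DMSO pair followed GC content. The combination gave 0.00 (interval -0.40 to 0.40). This value was 0.32 (adjusted p = 0.00151) without SKNO-1 DMSO replicate 1, -0.28 (adjusted p = 0.00338) without replicate 2 and -0.39 (adjusted p = 0.000462) with the GC trend removed, so that no direction can be given. Corin gave -0.53 ± 0.17 (adjusted p = 0.044), which was -0.22 and -0.82 without each DMSO library. The call was lost without any 1 of the 6 treated libraries. ATRA gave -0.13 (interval -0.52 to 0.27), called without SKNO-1 DMSO replicate 2 (-0.44, adjusted p = 0.000173).

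**Figure D3:**
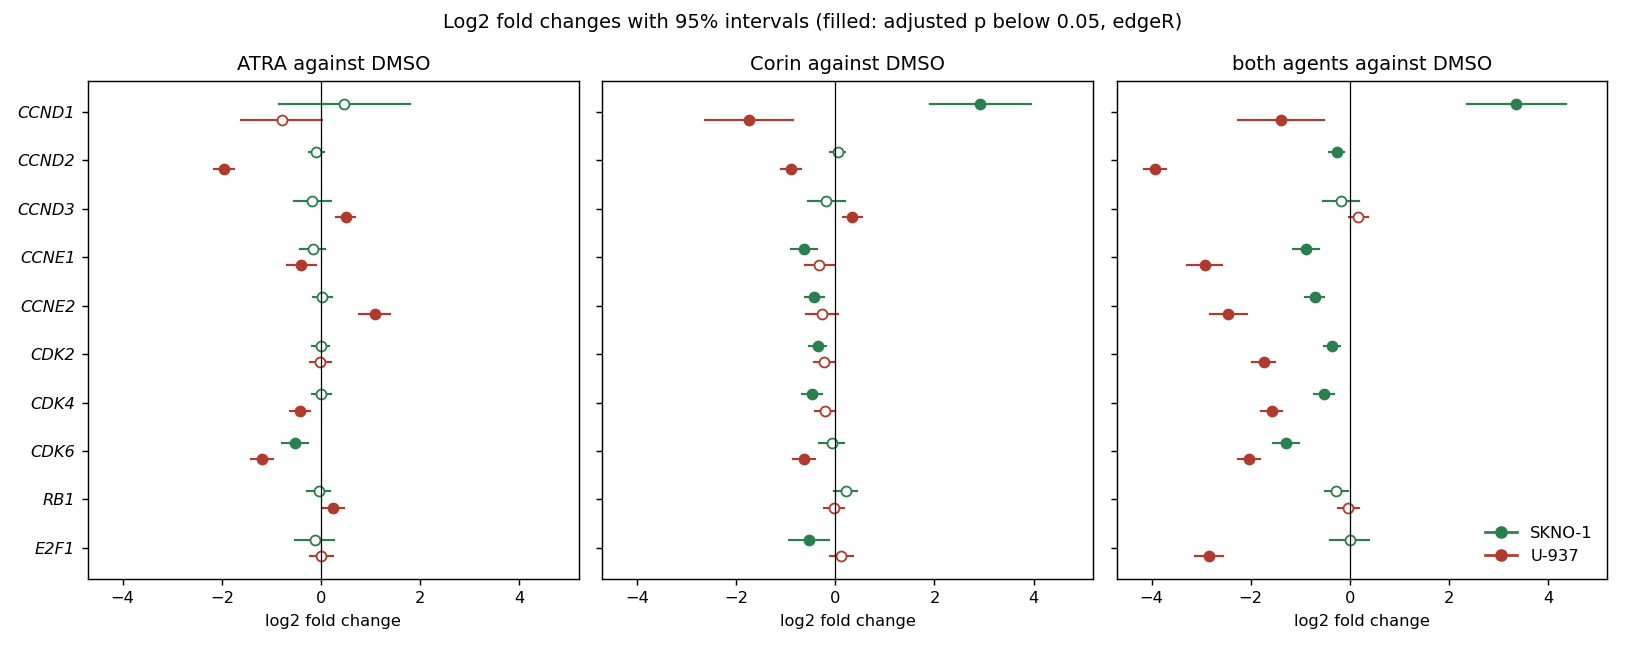
Log2 fold change against DMSO of each gene (rows) with its 95% interval, for ATRA, Corin and the combination, in SKNO-1 (green) and U-937 (red). Filled points passed the test. The U-937 combination values run from -3.93 for CCND2 to 0.17 for CCND3, while in SKNO-1 the combination values other than 3.36 for CCND1 run from -1.28 to 0.00.

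The stretches before the start of transcription of E2F1 and CCNE1 are shown because both genes fell in the U-937 combination and both are textbook targets of E2F factors. They are the 250 bases before the start given by RefSeq (GRCh38.p14), for E2F1 at chr20:33686386-33686635 (minus strand) and for CCNE1 at chr19:29811741-29811990 (plus strand), each in the direction of its gene. Capitals mark matches to the consensus bound by E2F factors, searched on both strands as TTTCCCGC, TTTCGCGC, TTTGCCGC and TTTGGCGC.
E2F1: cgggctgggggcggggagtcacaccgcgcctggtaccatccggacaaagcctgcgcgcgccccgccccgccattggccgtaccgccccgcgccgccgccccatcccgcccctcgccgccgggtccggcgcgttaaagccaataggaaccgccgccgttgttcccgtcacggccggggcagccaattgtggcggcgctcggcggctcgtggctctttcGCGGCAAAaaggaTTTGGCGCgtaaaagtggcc
CCNE1: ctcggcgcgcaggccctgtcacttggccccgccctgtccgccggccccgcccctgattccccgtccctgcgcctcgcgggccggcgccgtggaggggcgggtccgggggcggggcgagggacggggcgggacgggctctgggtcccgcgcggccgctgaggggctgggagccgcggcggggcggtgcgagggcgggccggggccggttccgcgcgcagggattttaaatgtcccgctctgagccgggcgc

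The E2F1 stretch held 2 matches. They point away from each other: TTTGCCGC reads on the opposite strand, from base -33 to base -26, and TTTGGCGC on the strand of the gene, from base -20 to base -13, counted from the last base before the start as -1. The CCNE1 stretch held none. RefSeq windows of 300 bases, with 250 before and 50 after a start, were found for 6 of the 10 genes (CCND3, CCNE1, CDK4, CDK6, RB1 and E2F1), in 9 windows, and the only window with a match was that of E2F1. The windows of RB1, CDK4 and CCND3, and a window of CDK6, belong to starts inside the gene spans given above. Of all 35116 windows, 3.31% held a match. By gene, 3.99% of the 27305 genes with a window had a match, and so did 11 of the 17 E2F target genes listed below that have a window. A match in the letters is a description and no measure of binding.

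The list of E2F target genes held 20 genes of S phase entry, such as the MCM helicase genes, PCNA, TYMS, CDC6 and CDT1. In the U-937 combination all 20 of 20 were called lower (32.2% of all genes), from -1.99 to -4.71, with a median of -3.07 beside 0.03 for all genes tested. GINS2, a subunit of the replicative helicase, was at -4.71 (adjusted p = 1.11e-18) and CDC45, which acts with it, at -4.22 (adjusted p = 1.16e-16). With ATRA alone 9 were lower and 2 were higher (41.8% of all genes called), RRM2 among the latter at 0.64 (adjusted p = 2.7e-05) and MCM6 among the former at -0.64 (adjusted p = 6.22e-05). With Corin alone 2 were lower, GINS2 at -0.37 and ORC1 at -0.41, and 1 was higher, UHRF1 at 0.36 (adjusted p = 0.0128), a count of 3 of 20 that lies near the 12.9% of all genes called. In SKNO-1, Corin lowered 14 of 20 (median -0.58, all genes 0.00, 17.3% of all genes lower), the combination lowered 11 and raised 1, TK1 at 0.70 (adjusted p = 0.02), beside 46.7% of all genes called, and ATRA changed none at this threshold.

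The CDK inhibitor list held 8 genes, all tested. In the U-937 combination CDKN1A, the gene of p21, was higher by 4.57 (adjusted p = 1.38e-16), CDKN2B, the gene of p15, by 2.53 (adjusted p = 4.51e-11) and CDKN2D, the gene of p19, by 1.96 (adjusted p = 3.42e-11) on the log2 scale. CDKN3, a phosphatase gene counted with this list, was at -1.01 and CDKN2A at -0.48, both called lower. ATRA alone raised CDKN1A (2.53), CDKN2D (1.61) and CDKN2C (1.03), and Corin alone raised CDKN1A (1.64) and CDKN2D (0.82). In SKNO-1 the combination raised CDKN2D (2.19, adjusted p = 4.86e-05) and CDKN1A (1.32, adjusted p = 0.000281) and lowered CDKN2A (-0.69) and CDKN2C (-0.57). Corin raised CDKN1C (2.49), CDKN1A (1.97), CDKN2D (1.12) and CDKN1B (0.41) and lowered CDKN2C (-0.53), and ATRA raised CDKN2D (0.82) and lowered CDKN1A (-1.20, adjusted p = 0.00367). The counts of called genes, 5 of 8 in the U-937 combination and 4 of 8 in the SKNO-1 combination, lie near the 65.3% and 46.7% of all genes called. The median over the 8 genes was -0.22 in the U-937 combination and 0.31 in the SKNO-1 combination, so the list as a whole did not move one way in U-937.

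The list of partners and relatives held 25 genes, of which 24 were tested in each line: other E2F and pocket protein genes, the dimer partners TFDP1 and TFDP2, A-type cyclins, CDK1, CDC25A, the CDK-activating kinase, SKP2, FBXW7 and MYC. In the U-937 combination 19 were lower and 2 higher, with a median of -1.04, beside 32.2% of all genes lower and 33.1% higher. MYC, a regulator of cell growth, was at -5.55 (adjusted p = 9.36e-21) and E2F5 at -4.53 (adjusted p = 1.95e-14), and the higher genes were E2F2 at 1.04 and FBXW7 at 0.32. ATRA alone lowered 10 and raised 3 (E2F2 at 1.63, RBL1 at 0.32 and RBL2 at 0.26), beside 41.8% of all genes called. Corin, with 12.9% of all genes called, lowered 2 (CCNG1 at -0.57 and CDC25A at -0.48) and raised 1 (CCNA1 at 0.40). In SKNO-1 the combination lowered 14 and raised 1 (CCNA1 at 1.96), Corin lowered 11 and raised 1 (CCNA1 at 2.02), and ATRA lowered 1 (TFDP2 at -0.40), beside 46.7%, 37.9% and 6.75% of all genes called.

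**Figure D4:**
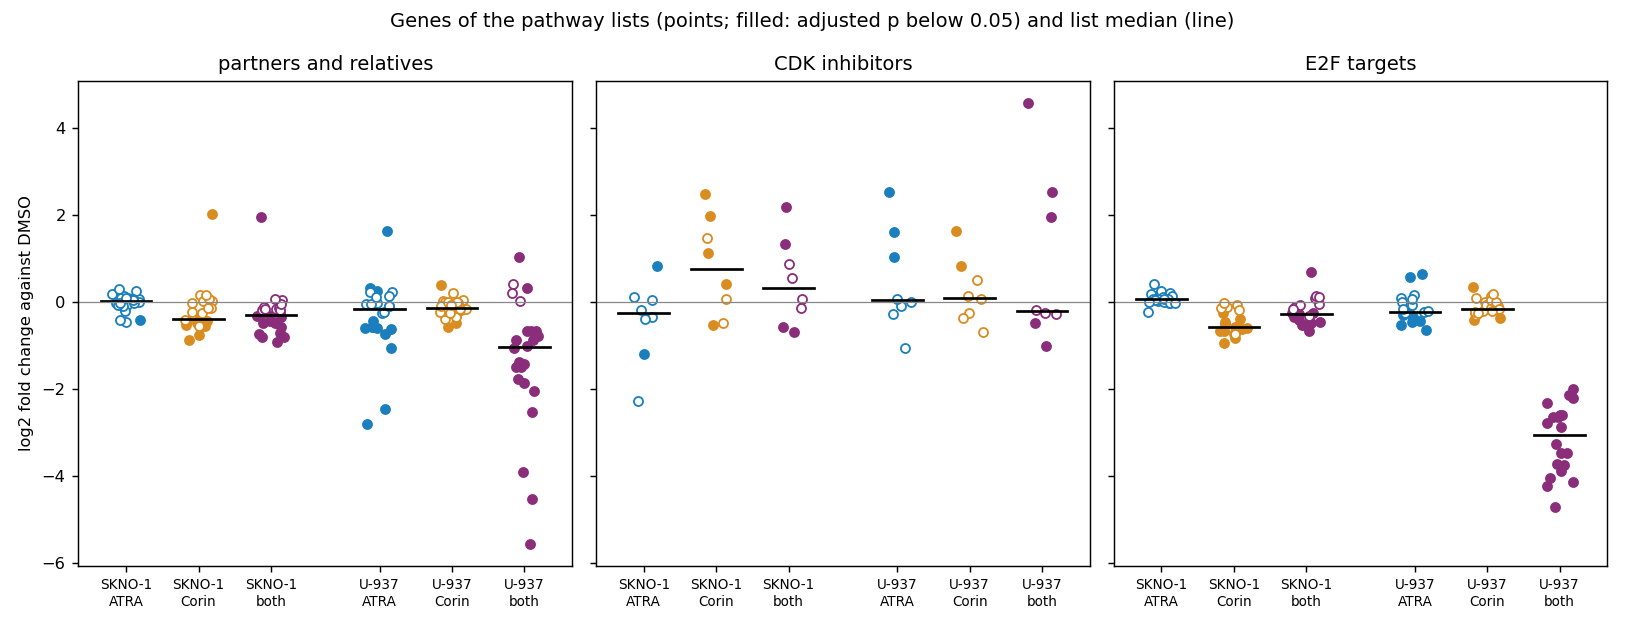
Log2 fold change against DMSO of the genes in each pathway list (points, filled where the test was passed) for ATRA, Corin and the combination in both lines, with the list median as a line. In the U-937 combination the 20 E2F targets lie between -4.71 and -1.99, whereas the 8 CDK inhibitors range from -1.01 to 4.57.

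The design crosses the 2 agents, so what the combination did can be compared with the log2 changes of ATRA and of Corin added up. For U-937, 9 of the 10 genes lay below that sum and the departure passed the test for 7 of them, with 23.4% of all genes departing from it (8.11% above and 15.3% below). The departure was largest for CCNE2, where single effects that sum to 0.81 stood against -2.45 with the combination, a departure of -3.26 ± 0.23 (adjusted p = 2.98e-08). For E2F1 the sum was 0.13 and the departure -2.97 ± 0.18 (adjusted p = 9.41e-12), for CCNE1 -2.22 ± 0.22 (adjusted p = 5.08e-08) and for CDK2 -1.51 ± 0.15 (adjusted p = 3.79e-08). These 4 genes act at or after the release of E2F in the textbook circuit. Whether the departures follow a gene's place in it was not tested.

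Among the genes of the CDK4 and CDK6 step, 3 departures passed the test. CCND2 departed by -1.07 ± 0.14 (adjusted p = 2.82e-06), CDK4 by -0.94 ± 0.14 (adjusted p = 2.49e-05) and CCND3 by -0.67 ± 0.13 (adjusted p = 0.000534). CDK6, whose single effects sum to -1.82, was at -2.03 with the combination, a departure of -0.21 (interval -0.52 to 0.09, adjusted p = 0.342). RB1 departed by -0.26 (interval -0.55 to 0.03) and CCND1 by 1.14 (interval -0.14 to 2.42), neither past the test. The count of 7 was the same without any 1 of the 8 U-937 libraries.

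In SKNO-1 none of the 10 genes passed the test of additivity by edgeR, with 0.463% of all genes called. The largest values were -0.68 for CDK6 (interval -1.05 to -0.31, adjusted p = 0.143) and 0.65 for E2F1 (interval 0.09 to 1.22, adjusted p = 0.311). With DESeq2, CDK6 was called (adjusted p = 0.0166), as it was with the GC trend removed (-0.50, adjusted p = 0.00831). CDK6, RB1 and E2F1 were called without either SKNO-1 DMSO library, and CCND2 and CCNE2 without replicate 2, in fits that leave 1 DMSO library. With 1 library left out at a time, CDK6 ran from -0.84 to -0.44. RB1 ran from -0.56 to -0.23 and E2F1 from 0.37 to 0.98.

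**Figure D5:**
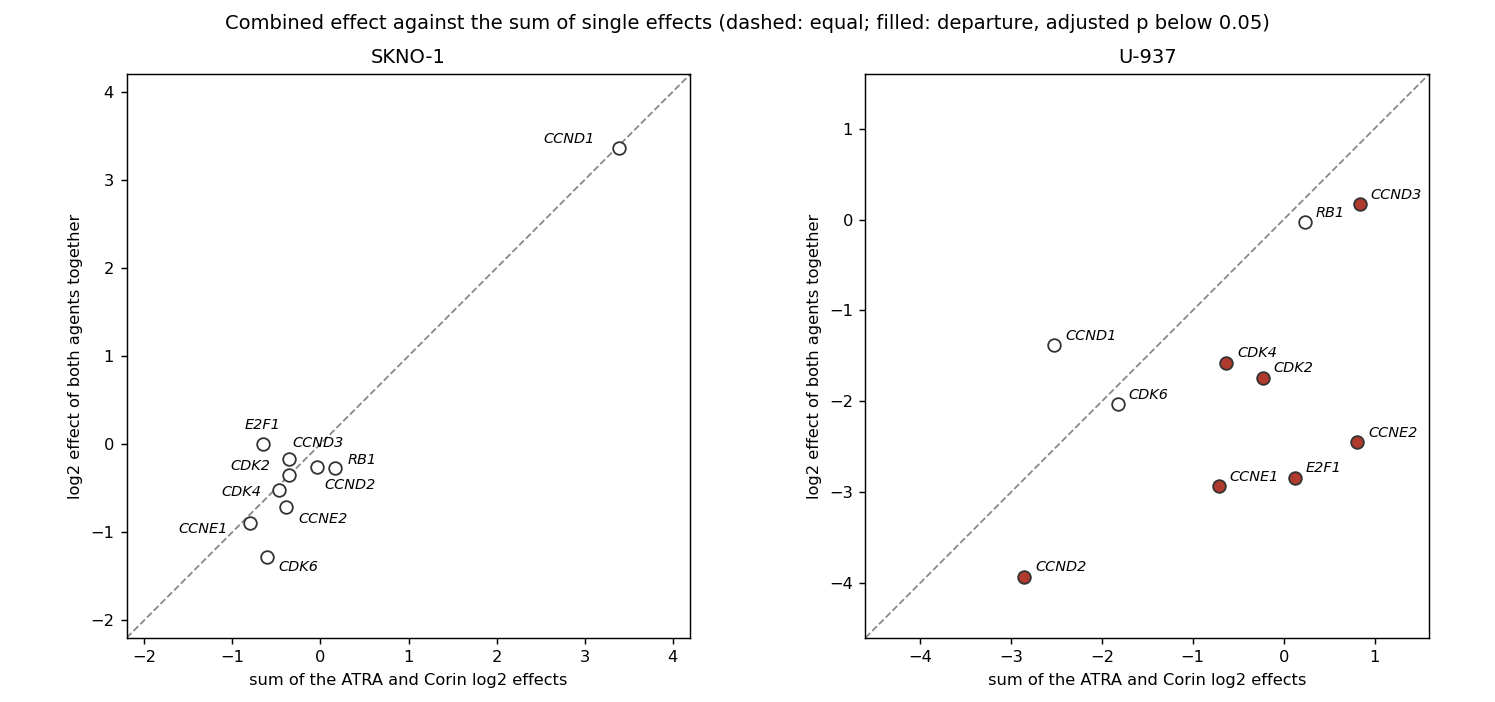
Log2 effect of the combination (vertical) against the sum of the log2 effects of ATRA and Corin (horizontal) for each gene, in SKNO-1 and U-937, with the line of equality dashed and departures that passed the test filled. In U-937, CCNE2 and E2F1 lie furthest below the line, with departures of -3.26 and -2.97, and CDK6 lies close to it.

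Set against ATRA alone, the combination lowered 9 of the 10 genes in U-937 (47.4% of all genes called, 22.5% higher and 24.9% lower), CCND1 being the exception at -0.60 (interval -1.50 to 0.31). RB1 was at -0.28 (adjusted p = 0.0238) and CCND3 at -0.33 (adjusted p = 0.00566) in that comparison. The RB1 call was lost without ATRA replicate 1 (adjusted p = 0.126), ATRA replicate 2 (0.115) or combination replicate 1 (0.224), and the CCND3 call without ATRA replicate 2 (0.108). Against Corin alone, the combination lowered 7 in U-937 (60.5% of all genes called, 29.9% higher and 30.6% lower), all except CCND1, CCND3 and RB1. In SKNO-1 the combination lowered 5 and raised 1 against ATRA (44.8% of all genes called, 23.0% higher and 21.8% lower): CDK6 at -0.76, CCNE2 at -0.74, CCNE1 at -0.72, CDK4 at -0.53 and CDK2 at -0.35 were lower, and CCND1 at 2.89 was higher. The CDK2 call was lost without ATRA replicate 1 (adjusted p = 0.066).

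Against Corin in SKNO-1, the combination lowered CDK6 (-1.21 ± 0.11, adjusted p = 0.000582), RB1 (-0.48, adjusted p = 0.0238) and CCND2 (-0.32, adjusted p = 0.0227), with 10.4% of all genes called (4.82% higher and 5.60% lower). The calls of RB1 and CCND2 were lost without any 1 of the 6 treated libraries, with adjusted p from 0.0616 to 0.182 for RB1 and from 0.0678 to 0.198 for CCND2. E2F1 was at 0.53 (interval 0.13 to 0.93, adjusted p = 0.0904), with both combination libraries above both Corin libraries. No DMSO library enters this comparison, so leaving 1 out (0.54 in each case) mainly changed the spread shared by the groups. The fit of the 4 libraries compared (0.54, adjusted p = 2.32e-07) also drops the DMSO pair, whose replicates differed most. E2F1 was called higher in these fits and with DESeq2 (0.49, adjusted p = 0.0384). It was not called higher with library totals only, DESeq2 size factors in edgeR, the GC trend removed or the replicate block (0.53, adjusted p = 0.127). Nor was it without any 1 of the 6 treated libraries. In the same comparison 5 of the 20 E2F targets were higher, namely MCM5 at 0.83 (adjusted p = 0.028), MCM2 at 0.59 (adjusted p = 0.043), UHRF1 at 0.42, MCM4 at 0.33 and MCM3 at 0.31, and none was lower.

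The lines also differed before treatment. In the DMSO libraries 9 of the 10 genes differed between U-937 and SKNO-1, beside 64.8% of the 19872 genes tested (31.7% higher and 33.1% lower in U-937), so the share alone says little. CCND3 was 6.74-fold higher in U-937 (log2 difference 2.75 ± 0.11, adjusted p = 7.59e-14), CCND1 was 8.65-fold higher on few counts (3.11 ± 0.45, adjusted p = 5.94e-06) and RB1 was 1.70-fold higher (0.77 ± 0.10, adjusted p = 2.4e-06). CCND2 was 2.42-fold lower (-1.27 ± 0.09, adjusted p = 1.52e-10), CCNE1 2.06-fold, CDK6 2.03-fold, CCNE2 1.76-fold, E2F1 1.64-fold and CDK4 1.28-fold lower in U-937. CDK2 was at 0.15 (interval -0.05 to 0.34), and was called higher without SKNO-1 DMSO replicate 1 (0.25, adjusted p = 0.0372), where the CDK4 call was lost (-0.18, adjusted p = 0.114).

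The response to ATRA differed between the lines for 5 of the 10 genes, with 19.4% of all genes called (10.6% higher and 8.80% lower). CCNE2 (1.10 ± 0.20, adjusted p = 0.000526) and CCND3 (0.71 ± 0.16, adjusted p = 0.00281) were more positive in U-937, and CCND2 (-1.82 ± 0.12, adjusted p = 5.19e-09), CDK6 (-0.62 ± 0.16, adjusted p = 0.00806) and CDK4 (-0.39 ± 0.13, adjusted p = 0.0494) were more negative. The CDK4 call was lost without any of 7 single libraries (adjusted p from 0.0557 to 0.101), and the CCND3 call without SKNO-1 ATRA replicate 1 (0.0577). The response to Corin also differed for 5 genes, with 12.8% of all genes called (5.28% higher and 7.49% lower): CCND1 (-4.66 ± 0.60), CCND2 (-0.95 ± 0.12) and CDK6 (-0.55 ± 0.16) were more negative in U-937, and E2F1 (0.65 ± 0.19) and CCND3 (0.52 ± 0.16) more positive. Without SKNO-1 DMSO replicate 1 only CCND1 and CCND2 were called, and without SKNO-1 DMSO replicate 2 more genes were called. With 1 library left out at a time, CDK6 ran from -0.75 to -0.37, E2F1 from 0.31 to 0.95 and CCND3 from 0.31 to 0.73. Each of E2F1, CCND3 and CDK6 also lost its call without any of several other libraries, with adjusted p up to 0.0965 for CDK6.

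The response to the combination differed between the lines for 8 of the 10 genes, all more negative in U-937, with 40.6% of all genes called (17.9% higher and 22.7% lower). The interaction was -4.698 ± 0.58 for CCND1 (adjusted p = 2.46e-06), -3.61 ± 0.13 for CCND2 (adjusted p = 1.99e-13), -2.80 ± 0.21 for E2F1 (adjusted p = 2.81e-09) and -1.997 ± 0.19 for CCNE1 (adjusted p = 1.07e-07). CCNE2 (-1.69), CDK2 (-1.34), CDK4 (-1.01) and CDK6 (-0.70) were called as well. CCND3 (0.39, interval 0.06 to 0.71, adjusted p = 0.0576) and RB1 (0.29, interval -0.01 to 0.60) were not. Of the 8 called differences that of CDK6 was the smallest in size.

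The departures from additivity differed between the lines for 7 of the 10 genes, with 12.3% of all genes called (3.62% higher and 8.70% lower). They were E2F1 (-3.61), CCNE2 (-2.94), CCNE1 (-2.11), CDK2 (-1.51), CDK4 (-0.88), CCND2 (-0.84) and CCND3 (-0.84), all more negative in U-937. The call for CCND3 was lost without any of 7 single libraries (adjusted p from 0.0508 to 0.0946).

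The 10 genes were ordered by TPM within each group. In SKNO-1 with DMSO, CDK4 stood at 139 and 164 TPM and CDK6 at 107 and 174 TPM, which overlap, followed by CCND2 at 45.5 and 74.1 TPM. CDK2, RB1, CCNE2 and CCNE1 followed between 15.8 and 31.5 TPM, each overlapping the next. E2F1 stood at 11.8 and 11.1 TPM, CCND3 at a mean of 5.06 TPM and CCND1 at 0.04 TPM in both libraries.

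In U-937 with DMSO the order was CDK4 (145 and 149 TPM), CDK6 (mean 82.4 TPM), RB1 (49.0 and 51.6 TPM), CDK2 and CCND3, which overlap (40.7 and 46.4, and 40.6 and 43.7 TPM), and CCND2 (30.6 and 31.7 TPM). CCNE2 and CCNE1 overlapped between 11.0 and 14.6 TPM, and E2F1 stood at 9.13 and 8.96 TPM and CCND1 at 0.29 and 0.31 TPM. With the combination the first 3 places went to RB1, CDK4 and CCND3, which lay between 33.0 and 37.0 TPM and overlapped. CDK6 was at 15.8 and 15.5 TPM, and E2F1, next to last, at 0.92 and 0.88 TPM. Changes between groups were tested on counts and not on TPM. The TPM of CCND2 in the SKNO-1 DMSO pair differed more than its CPM.

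For each gene the 3 genes with the most similar pattern were sought, by Pearson's r of log2 CPM over the 16 libraries after subtracting each line's mean. The points share libraries, treatments and depth, and the 2 libraries of a group are not independent conditions, so r is a description. A likeness over the 16 libraries need not hold in each line. E2F1 and CCNE1 had r = 0.936 over all, 0.984 in U-937 and 0.277 in SKNO-1. CDK2 and CDK4 had 0.954 over all, 0.964 in U-937 and 0.988 in SKNO-1. For the similar genes named below, r within each line is not given. For E2F1 these were CDT1, a replication licensing factor (r = 0.994), the helicase gene DDX11 (0.993) and the chromatin assembly gene CHAF1A (0.991). For CDK2 they were CDCA8, PCNA and FANCI (0.993 to 0.994), for CCNE1 CDC25A, JPT2 and PBK (0.988 to 0.989), and for CCNE2 the mitotic genes ANLN, UBE2C and KIF4A (0.986 to 0.992). For CDK4 they were PPP2R5D, YBX1 and GGCT (0.992 each), for CCND2 TARBP1, BCAT1 and UNC5C (0.990 to 0.994), and for CDK6 FCHSD2, DIAPH1 and REV3L (0.967 to 0.978). The likeness was weaker for RB1 (IREB2 at 0.925, PHTF2 and CUL4B), CCND1 (TBX3 at 0.910, SIGLEC6 and PRSS12) and CCND3 (STARD8 at 0.834, NEU1 and AP1B1). The names depend on the measure: with Spearman's rho 0 to 2 of the 3 names were shared, 2 of them for E2F1.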

How the data were processed

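RNA-seq of 16 libraries was used. Reads were processed by the authors with Trimmomatic, STAR and RSEM on hg38, per the submitters' processing notes, which give no versions here; the annotation release is not given in the sources used here. The authors deposited each expected count (estimated count) per gene from RSEM, not normalized, and TPM, scaled by RSEM's effective gene length. The authors also deposited tables of log2 fold changes, their standard errors (a score column in the deposited tables) and adjusted p-values, made with DESeq2; values from them are named as theirs. Beside the CCND1 and CCND2 values given above, other calls made here missed 0.05 in the authors' DESeq2 tables. In SKNO-1 these were CDK6 with ATRA (adjusted p = 0.0511), and CDK2 (0.059) and E2F1 (0.0529) with Corin. In U-937 it was CCNE1 with ATRA (0.0591). Of the positive estimated counts, 20.4% were not whole, and all were rounded.

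Counts were tested with edgeR 4.0.16 (R 4.3.3, limma 3.58.1): TMM scaling, filterByExpr, robust quasi-likelihood fits, and Benjamini-Hochberg adjustment over all genes tested in each of 17 comparisons, called under 0.05. Each line was fitted with its 8 libraries, and comparisons between lines with all 16. Standard errors were derived from the log2 fold change and its F statistic, and intervals are at 95%. CPM is TMM-scaled. Totals of 28.4 to 37.8 M set the precision, which is low for CCND1. Positions are from GENCODE 44. Scripts were tested on simulated data. Alternatives were DESeq2 1.42.0, its size factors, library totals, no filter, removal of a GC trend, only the 4 libraries compared, a replicate block, stricter thresholds and leaving out each library.

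The 10 genes and the lists were chosen with earlier results of these data known. Genes of the lists were named where 5 or fewer were called, or as the 2 with the largest change among those called whose mean CPM reached 5; the 3 most similar genes, by Pearson's r, met the same level. Any others were named after their values were seen.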

Additional observations from a re-analysis of the deposited data

Results flagged for a closer look

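For 25 results the test of the difference between the lines itself passed, with edgeR's quasi-likelihood test in the fit of all 16 libraries. Each value is the log2 effect in U-937 minus that in SKNO-1, so a negative value means a lower effect in U-937. The lines also differ in medium, which cannot be told apart from the line.

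The effect of ATRA differed by -1.82 for CCND2, 0.71 for CCND3, 1.10 for CCNE2, -0.39 for CDK4 and -0.62 for CDK6. The effect of Corin differed by -4.66 for CCND1, -0.95 for CCND2, 0.52 for CCND3, -0.55 for CDK6 and 0.65 for E2F1. The effect of the combination differed by -4.698 for CCND1, -3.61 for CCND2, -1.997 for CCNE1, -1.69 for CCNE2, -1.34 for CDK2, -1.01 for CDK4, -0.70 for CDK6 and -2.80 for E2F1. The departure from additivity differed by -0.84 for CCND2, -0.84 for CCND3, -2.11 for CCNE1, -2.94 for CCNE2, -1.51 for CDK2, -0.88 for CDK4 and -3.61 for E2F1.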

How the results depend on the processing

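Counts of called genes are given first as in the report and then under the alternative. With a log2 change of at least 1 also required, the counts fell to 0 for ATRA, 1 for Corin, 2 for the combination, 1 for the combination against ATRA and 1 against Corin in SKNO-1, to 3 for ATRA and 1 for Corin in U-937, and between the lines to 5 with DMSO, 2 for the ATRA effect, 1 for the Corin effect and 4 for the departure from additivity. The SKNO-1 ATRA count of 1 was also 0 with library totals only, with the replicate block, with only the 4 libraries compared and at an adjusted p under 0.01. The SKNO-1 Corin count of 6 was 3 with only the 4 libraries compared. For the combination against Corin in SKNO-1, the count of 3 was 5 with DESeq2, 5 with no low-count filter, 6 with only the 4 libraries compared and 1 at an adjusted p under 0.01. The SKNO-1 departure count of 0 was 1 with DESeq2, 1 with the GC trend removed, with or without the replicate block, and 3 with no filter. The count of 5 for the Corin effect between lines was 3 with the replicate block and 2 at an adjusted p under 0.01. The cause was not tested, apart from the smaller number of samples or stricter threshold that an alternative sets.

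In SKNO-1, 7 values changed sign with a call. Without SKNO-1 DMSO replicate 2 these were CDK4 with ATRA (-0.16), CDK6 with Corin (0.12) and E2F1 with the combination (-0.28); without replicate 1 the same values were 0.10, -0.29 and 0.32. With the GC trend removed, without and with the replicate block, E2F1 was at -0.39 and -0.39 with the combination against DMSO and at -0.26 and -0.27 against ATRA.

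Leaving out 1 library at a time, the counts in SKNO-1 ranged from 0 to 5 for ATRA, 4 to 10 for Corin, 6 to 9 for the combination, 5 to 9 and 1 to 6 for the combination against ATRA and against Corin, and 0 to 5 for the departure. In U-937 they ranged from 5 to 7 for ATRA, 2 to 4 for Corin, 7 to 8 for the combination, 7 to 9 against ATRA, and were 7 throughout against Corin and for the departure. Between the lines the count was 9 throughout with DMSO, 3 to 6 for the ATRA effect, 2 to 8 for the Corin effect, 8 to 9 for the combination and 6 to 8 for the departure. A group left with 1 library is assumed to vary like the others. The shares over all genes in these fits are not given, so the counts have no background beside them.

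Deviations of same-numbered libraries correlated from -0.473 to 0.227 in SKNO-1 and from -0.422 to 0.402 in U-937. The labels do not say whether replicate numbers mark a shared culture or day, and these values cannot settle it. With the replicate block the U-937 combination count stayed at 8, and 164 of 170 results kept direction and side of the threshold. Of the 3 genes named as most similar to each gene, 0 to 2 were shared with Spearman's rho and 0 to 2 without centring. Depth limits CCND1, with 3 to 42 counts per library.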
